A study of Rattus norvegicus with 2 samples.

Results

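Heat shock proteins and their cochaperones were taken as the genes whose symbol on the array annotation begins with Hspa, Hspb, Hspd, Hspe, Hsph, Hsp90, Dnaja, Dnajb, Dnajc or with Bag and a digit. This rule uses names alone and found 71 of the 15037 named genes, each measured by 1 probe set. RNA labelled as left ventricle of male Sprague Dawley rats (SD in the labels) given cocaine at 20 mg/kg daily for 14 days through the tail vein was compared with that of male rats of the same strain labelled as untreated, on 1 Clariom S array each, and whether an array holds RNA of 1 rat or a pool is not stated. The methods describe 8-week-old rats, saline given to the controls on the same schedule, and killing with pentobarbital a day after the last dose. With 1 array per condition there is no replicate error, so each difference below describes these arrays only and carries no SD or p-value. Intensities are given as the cocaine value against the control value, and ratios, on the log2 scale, as cocaine over control, beside the same measure over all named genes.

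Heat shock proteins are molecular chaperones that bind unfolded or partly folded proteins. Hsp70 proteins bind and release their clients in cycles driven by ATP, J-domain proteins (the Dnaj genes) deliver clients and start ATP hydrolysis, and exchange factors such as the Bag proteins and the large Hsp70 relatives reset the cycle. Hsp90 acts later, on clients close to their final fold, small heat shock proteins hold damaged proteins without using ATP, and the chaperonin Hsp60 encloses clients inside mitochondria. In heart muscle the small heat shock proteins are known for guarding the contractile filaments. Cells raise the cytosolic chaperones through the heat shock factor Hsf1 and those of the endoplasmic reticulum (ER) through the unfolded protein response.

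The arrays did not look like left ventricle in the markers they carried, a fact of the whole series that bears on every level given here. All 19 measured lung epithelium markers passed the background limit on each array, and their median level stood at percentile 99.7 (cocaine) and 99.5 (control) of all named genes. The background limit is a stand-in, the level that 95% of 1155 genes for olfactory and vomeronasal receptors did not exceed, 64.1 for cocaine and 71.5 for control. It was passed by 67.3% of all named genes with cocaine and by 66.2% in the control. Of 21 measured cardiomyocyte markers, 16 passed it with cocaine and 9 in the control, and their medians stood at percentiles 41.2 and 30.3. Of these markers 17 were higher with cocaine, where 52.4% of all named genes were. The summed intensity of the cardiomyocyte markers was 43902 against 29384, and no marker was at 0. Most of each sum came from Atp2a2 alone, at 28671 against 18344. The next brightest marker, Myl2, was lower with cocaine, at 6344 against 7778. The summed intensity of the lung markers was 3738360 against 3691480, and Sftpc was at the same, highest value of each array, so that its share of the sums cannot show a difference. In a piece of tissue, fewer cells of a type and less RNA per cell cannot be told apart.

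Of the 71 genes, 51 were higher on the cocaine array and 20 lower, where 52.4% of all named genes were higher and 47.3% lower. The median log2 ratio was 0.21, against 0.02 over all named genes. The differences were small. At least 1.5-fold higher were 6 members, where 4.63% of all named genes were, and 3 were at least 1.5-fold lower, against 4.95%. Past 2-fold there was 1 gene, Dnajc25, against 0.698% of all named genes upward, and none downward, against 0.599%. Of the 56 members above the background limit on both arrays, 46 were higher and 10 lower, and the median was 0.26, beside 57.5% higher, 42.4% lower and a median of 0.05 among the 9763 named genes that meet the same condition. At 1.5-fold, 6 of the 56 were higher, against 4.21% of those genes, and 0 lower, against 2.83%. At 2-fold, 1 of the 56 was higher, against 0.481%, and 0 lower, against 0.297%. The 11 members under the limit on both arrays had 4 higher and 7 lower, and the remaining 4 (Hspb7, Hspa12a, Hspb9 and Dnajc17) passed it on 1 array.

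**Figure D1:**
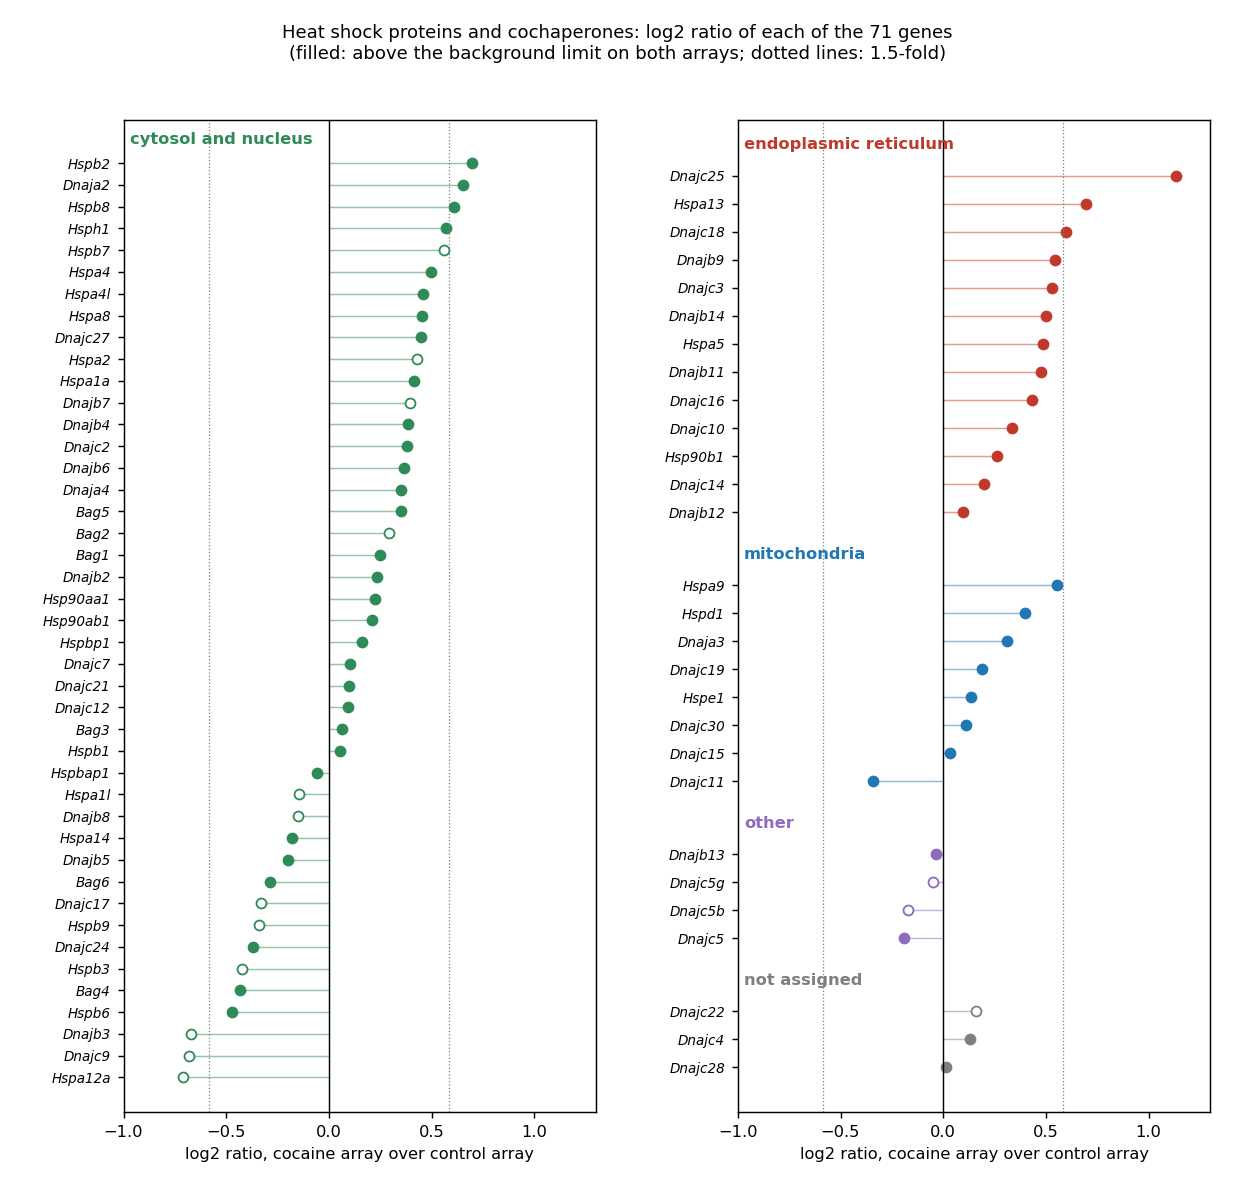
Log2 ratio of the cocaine over the control array (x axis) for each of the 71 genes (rows), coloured and grouped by compartment, with filled points for genes above the background limit on both arrays and dotted lines at 1.5-fold. All 13 genes assigned to the ER lie to the right of 0, and the 43 cytosolic and nuclear genes split into 28 higher and 15 lower, or 24 and 7 among the 31 filled points. Of all named genes 52.4% are higher, and of those above the limit on both arrays 57.5%.

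The ER members all lay on the same side. All 13 genes assigned to the ER were higher on the cocaine array, and all passed the background limit on both. Of all named genes 52.4% were higher, and of those above the limit on both arrays 57.5%. Among the brightest of 4 equal classes of named genes by mean level, 27 of 28 members were higher, only 9 of them ER members. Of all genes of that class 62.4% were higher. The log2 ratios of the 13 ER genes ran from 0.10 to 1.13, with a median of 0.48. The 43 genes of the cytosol and nucleus had a median of 0.21, with 28 higher and 15 lower. Of these 43, the 31 that passed the limit on each array had 24 higher, 7 lower and a median of 0.24, and with values raised to the limit the median of the 43 was 0.10. The 8 mitochondrial genes had a median of 0.16, with 7 higher and 1 lower. The 4 genes assigned elsewhere, Dnajb13 of the cilium and sperm tail and the vesicle proteins Dnajc5, Dnajc5b and Dnajc5g, were all lower, by at most 0.19, with 2 of them under the limit on both arrays. For 3 genes, Dnajc4, Dnajc22 and Dnajc28, no compartment was assigned, and their ratios ran from 0.01 to 0.16. Compartments came from general knowledge of the proteins, and without Dnajc16, Dnajc18 and Dnajc25, whose place is less settled, 10 of 10 ER genes were higher with a median of 0.48.

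In the ER lumen, Hspa5, which encodes the Hsp70 protein BiP, had intensities of 57310 against 40966, 1.40-fold higher. Its relative Hspa13, a truncated Hsp70 of microsomes, stood at 2119 against 1307, or 1.62-fold higher. Hsp90b1, the ER form of Hsp90 known as Grp94, stood at 62407 against 52005, or 1.20-fold higher. These ER partners of the Hsp70 and Hsp90 families thus all lay on the higher side, with Hspa13 past 1.5-fold. The J-domain proteins that serve BiP in the lumen were also higher. Dnajb9, known as ERdj4, stood at 2350 against 1610 (log2 ratio 0.55). Dnajc3, known as P58IPK, which also restrains the stress kinase Perk, stood at 2741 against 1899 (0.53). Dnajb11 and Dnajc10, which bind unfolded chains and reduce disulfide bonds respectively, had log2 ratios of 0.47 and 0.33. Over these 7 lumenal genes the median was 0.48, and over the 6 membrane J-domain proteins it was 0.47.

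Among the membrane J-domain proteins, Dnajc25 had the highest ratio of all 71 genes. It stood at 814 against 371, 2.19-fold higher, with rank 63 by rise among all named genes. Gng10, a G protein gamma subunit gene next to Dnajc25 in the RefSeq annotation and was looked up after the value of Dnajc25 had been seen, stood at 355 against 234 (log2 ratio 0.60). Dnajc18 stood at 5444 against 3597, or 1.51-fold higher, and Dnajb14 at 990.5 against 700.5, or 1.41-fold higher. Dnajc16 and Dnajc14 followed with log2 ratios of 0.43 and 0.20. Dnajb12, which helps clear misfolded membrane proteins, was nearly level at 3591 against 3358 (0.10), and its sign was the only one among the ER genes that turned under another scaling, at -0.01 after quantile normalization.

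Hsp70 genes of the cytosol lay on both sides, 3 higher and 3 lower. Hspa8, the constitutive Hsc70, had intensities of 292041 against 213038, 1.37-fold higher. Its probe set is one that the array design did not place on a chromosome, so its name rests on the annotation alone. Hspa1a, the classical stress-inducible Hsp70, stood at 157 against 118 (log2 ratio 0.41). Its neighbour Hspa1b is nearly identical in sequence and was not analysed here by name, so the values of Hspa1a may hold RNA of both. Hspa1l, a germ cell gene that lies beside Hspa1a on chromosome 20, stood at 60.2 against 66.5 and Hspa2, best known from spermatocytes, at 31.5 against 23.4, all under the background limit. Hspa14, which works with nascent chains at the ribosome, was lower, at 248 against 280.4 (-0.18). Hspa12a, a divergent member, stood at 49.4 against 80.7. Only the control value lay above the background limit, and with values raised to that limit Hspa12a was at least 1.13-fold lower, where the measured values differed 1.63-fold. Of the cytosolic Hsp70 genes above the limit on both arrays, 2 were higher (Hspa8 and Hspa1a) and 1 lower (Hspa14).

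The large Hsp70 relatives, which act as exchange factors and holdases, were higher in 3 of 3 cases. Hsph1, a strongly heat-inducible gene, stood at 1795 against 1210.5, 1.48-fold higher. Hspa4 stood at 6867 against 4860 (log2 ratio 0.50) and Hspa4l at 124.6 against 90.8 (0.46). Cytosolic Hsp90 differed less. Hsp90aa1, the inducible form, stood at 48740 against 41710 (0.22), and Hsp90ab1, the constitutive form, at 96420 against 83313 (0.21). The inducible and the constitutive Hsp90 gene thus had nearly the same ratio.

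**Figure D2:**
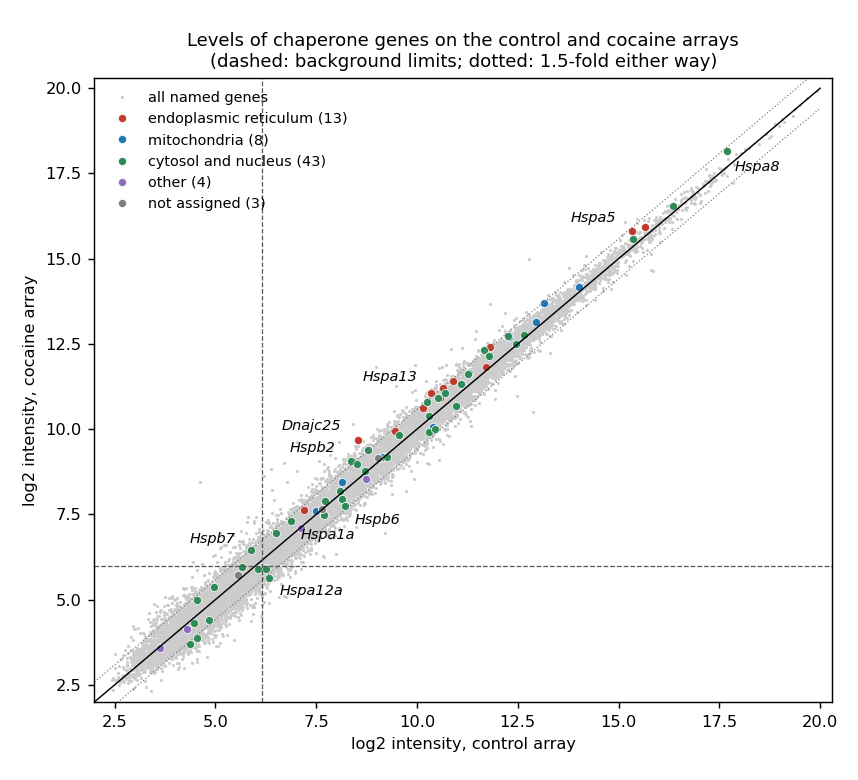
Log2 intensity on the control array (x axis) and the cocaine array (y axis) of all named genes (grey) and of the 71 genes (coloured by compartment), with the line of equality, dotted lines at 1.5-fold and dashed lines at the background limits of 64.1 and 71.5. Most coloured points lie just above the line of equality. Below it lie 20, among them the dim Hspa12a and 10 genes above the background limit on both arrays.

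In mitochondria, Hspa9, the mitochondrial Hsp70 also called mortalin, had the highest ratio, at 13311 against 9055, 1.47-fold higher. The chaperonin genes Hspd1, for Hsp60, and Hspe1, for its lid Hsp10, lie next to each other and are read in opposite directions from a shared stretch of DNA. Hspd1 stood at 6620 against 5017 (log2 ratio 0.40) and Hspe1 at 18268 against 16653 (0.13). Dnaja3, a mitochondrial J-domain protein, had 0.31, and Dnajc19, which acts at the import motor, 0.19. Dnajc30 and Dnajc15 had 0.11 and 0.03. Dnajc11, linked to the folds of the inner membrane, was the mitochondrial member on the lower side, at 1072 against 1359 (-0.34).

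The small heat shock proteins went both ways. Hspb2 stood at 537 against 332, 1.62-fold higher, and Hspb8, which works with Bag3 in the removal of damaged filament proteins, at 669.6 against 439.6, 1.52-fold higher. Hspb7, a heart-rich member, stood at 87.4 against 59.2, with only the cocaine value above the background limit, and with values raised to that limit the difference was at least 1.22-fold. In contrast, Hspb6, also called Hsp20 and known from heart and smooth muscle, stood at 215 against 298.5, 1.39-fold lower. Hspb1, the widespread Hsp27, was nearly level at 5847 against 5637 (log2 ratio 0.05), with -0.03 after quantile normalization and after loess. The muscle gene Hspb3 was under the limit on both arrays, at 21.3 against 28.5, and Hspb9, a testis gene, stood at 60.0 against 76.1. The list thus had 4 genes higher and 3 lower. Its median of 0.05 changed sign with quantile normalization and with a loess correction, at -0.03 under each, and was 0.31 without the genes under the limit on both arrays. Cryab, a small heat shock protein gene outside the naming rule that lies next to Hspb2, stood at 6742 against 6122 (0.14), so that these neighbours differed from each other in ratio. Within the family, then, Hspb2, Hspb7 and Hspb8 were higher, Hspb1 was nearly level, and Hspb6, Hspb3 and Hspb9 were lower. On the same arrays 17 of 21 cardiomyocyte markers were higher, where 52.4% of all named genes were. Their median log2 ratio of 1.34 was that of Fabp3, at 77.6 against 30.7, with only the cocaine value above the limit. With values raised to the limit Fabp3 had 0.117. Of the 21 markers, 8 passed the limit on both arrays (7 higher and 1 lower), 9 on 1 array and 4 on neither. The part of these markers in the values of the small heat shock protein genes, higher or lower, was not tested.

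Among J-domain proteins of the cytosol and nucleus, Dnaja2, a main partner of Hsc70, stood at 5081 against 3230.3, 1.57-fold higher, the largest ratio of the 3 measured Dnaja genes. Dnaja4 stood at 4491 against 3516 (log2 ratio 0.35). Dnaja1 and Dnajb1, the J-domain partners most closely tied to the heat shock response, and the genes Dnajc1, Dnajc6, Dnajc8 and Dnajc13 were not analysed here by name. Dnajb4, a close relative of Dnajb1, stood at 2150 against 1649 (0.38), and Dnajb6, which holds back aggregation, at 3215 against 2492 (0.37). Dnajb2 had 0.24 and Dnajb5 -0.20. Dnajb3, Dnajb7 and Dnajb8, known from the testis, were below the limit on each array, Dnajb3 at 14.6 against 23.3, and their ratios have no order there. Of 10 testis germ cell markers, 3 passed the limit on each array and 7 in neither, and their median log2 ratio was -0.17.
The 8 cytosolic and nuclear Dnajc genes had a median of 0.09, with 5 higher and 3 lower. Dnajc27 stood at 502 against 368 (0.45) and Dnajc2, which sits on the ribosome, at 1930 against 1481 (0.38). Dnajc7, a link between Hsp70 and Hsp90, had 0.10, Dnajc21 of ribosome assembly 0.10 and Dnajc12 0.09. Dnajc24, which takes part in the diphthamide modification of an elongation factor, was lower at 977 against 1264 (-0.37). Dnajc17 passed the limit on the control array alone, at 60.8 against 76.6, and Dnajc9, a histone chaperone, lay under it on both arrays at 12.9 against 20.7.

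The Bag proteins, which bind Hsp70 through a shared domain, had 4 members higher, 2 lower and a median of 0.16, which was 0.06 over the 5 above the limit on both arrays and 0.03 with values raised to the limit. Bag3, the stress-induced member that heart muscle depends on, was nearly level, at 436 against 417 (log2 ratio 0.06), whereas its partner Hspb8 was 1.52-fold higher. Bag5 stood at 3164 against 2484 (0.35) and Bag1 at 902 against 759 (0.25). Bag4 was lower, at 1027 against 1385 (-0.43), as was Bag6, which guards membrane proteins on their way to insertion, at 1630.4 against 1987 (-0.29). Bag2, at 62.3 against 50.8, was under the limit on both arrays. Hspbp1, a further exchange factor of Hsp70, had 0.16, and Hspbap1, a protein that binds Hspb1 and fell under the rule by its symbol, had -0.06.

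Bright genes lay slightly more often on the higher side of the cocaine array in general, so members were also set beside genes of similar level. With all named genes split into 4 classes of equal size by mean level, 28 members fell in the brightest class, and 27 of them were higher, with a median log2 ratio of 0.36. Of all 3759 genes of that class 62.4% were higher, with a median of 0.08. The 1 member of that class on the lower side was Bag6. In the next class 13 of 20 members were higher, with a median of 0.09, where 58.5% of its genes were higher with a median of 0.06. In the class below it 9 of 15 members were higher, with a median of 0.11 against -0.03 for its genes, and in the dimmest class 2 of 8, with a median of -0.16 against -0.07. The ER members made up 9 of the 28 in the brightest class and had a median of 0.48 there. Most of the higher members of that class thus lay outside the ER. Of the 51 members that were higher, 27 were thus in the brightest class.

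**Figure D3:**
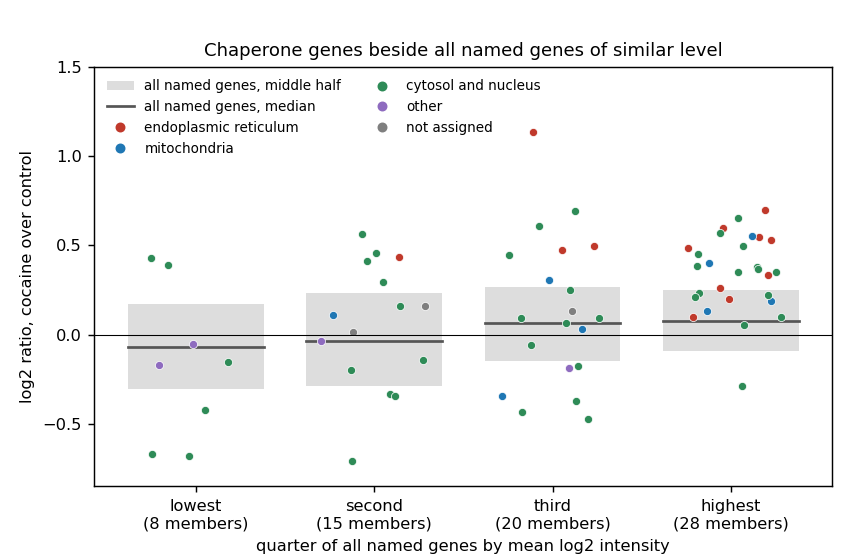
Log2 ratio of the cocaine over the control array (y axis) of the 71 genes (points, coloured by compartment, spread sideways for visibility) in 4 classes of mean level (x axis), over the median (line) and the range from the lower to the upper quartile (grey) of all named genes of that class. In the brightest class 27 of 28 points lie above 0.

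Promoter stretches were examined because chaperone genes are known for shared stress elements. RefSeq promoters of the GRCr8 assembly, from 250 bases before to 50 bases after the start of a gene, were matched for 58 of the 71 genes and searched on both strands. The heat shock element, bound by Hsf1, was searched as TTC, GAA and TTC with any 2 bases between neighbours. It was present in 4 of the 58 promoters, those of Hspa8, Hspd1, Hspe1 and Hsph1, in 0.798% of all 33469 promoters and in 0.531% of the 12435 promoters of named genes. The ER stress response element, searched as CCAAT and CCACG with any 9 bases between them, was present in Hspa5, Hsp90b1 and Dnajc3, in 0.0657% of all promoters and in 0.121% of those of named genes. Its short form, ATTGG and CCACG with any 1 base between them, was present in Dnajb11, where it reaches the start, in 0.0508% of all promoters and in 0.0965% of those of named genes. The sequences of those that carry the full elements are shown with the element in capitals and up to 30 bases on each side, 5′ to 3′ on the strand of the gene, as far as the start of the gene.
Hspa8 at chr8:50080429-50080501, plus strand: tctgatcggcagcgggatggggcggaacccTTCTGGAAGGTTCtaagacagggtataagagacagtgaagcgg
Hsph1 at chr12:10427302-10427367, plus strand: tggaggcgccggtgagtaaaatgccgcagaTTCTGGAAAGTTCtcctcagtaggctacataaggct
Hspe1 at chr9:64084232-64084309, plus strand: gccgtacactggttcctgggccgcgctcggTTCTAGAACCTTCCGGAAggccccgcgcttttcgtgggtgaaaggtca
Hspd1 at chr9:64084232-64084287, minus strand: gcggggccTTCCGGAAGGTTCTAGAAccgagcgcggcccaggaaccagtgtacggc
Hspa5 at chr3:38452943-38453015, plus strand: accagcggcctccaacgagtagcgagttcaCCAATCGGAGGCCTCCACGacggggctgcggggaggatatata
Hsp90b1 at chr7:23012421-23012499, minus strand: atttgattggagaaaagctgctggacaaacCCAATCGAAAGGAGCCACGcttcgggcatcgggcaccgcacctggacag
Dnajc3 at chr15:102432504-102432582, plus strand: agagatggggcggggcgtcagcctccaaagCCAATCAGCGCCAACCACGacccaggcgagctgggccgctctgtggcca
The capitals of Hspd1 and Hspe1 are the same 64084262 to 64084279 of chromosome 9 read from opposite strands and hold 2 overlapping matches. It lies 65 to 48 bases before the start of Hspe1 and 242 to 225 bases before that of Hspd1. The element of Hspa8 shown lies 55 to 43 bases before its start, with a further match 213 to 201 bases before it, and that of Hsph1 lies 36 to 24 bases before its start. The element of Hspa5 lies 43 to 25 bases before the start and that of Dnajc3 133 to 115 bases before it. Hsp90b1 holds the element shown, 176 to 158 bases before the start, and a further one on the other strand 72 to 54 bases before it.

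All 8 members with one of these elements were on the higher side, with log2 ratios of 0.46 for Hspa8, 0.57 for Hsph1, 0.40 for Hspd1, 0.13 for Hspe1, 0.48 for Hspa5, 0.26 for Hsp90b1, 0.53 for Dnajc3 and 0.47 for Dnajb11. All 8 passed the background limit on both arrays, and of the 56 members that did so 46 were higher, with or without an element. Other genes with the same letters lay on both sides. The 62 other named genes with a heat shock element had 32 higher and a median of 0.00. Of the 34 of them above the background limit on both arrays, 22 were higher, with a median of 0.08. The 12 other named genes with the ER stress response element had 8 higher and a median of 0.14, and the 11 with the short form 7 higher and a median of 0.11. Among these other genes with either form are 8 ER stress or ER folding genes, picked out after their values were seen. Of them Derl3 (0.39, under the limit in the control), Creld2 (0.35), Hyou1 (0.23), Ero1b (0.16), Calr (0.11) and Canx (0.09) were higher, and Herpud1 (-0.04) and Xbp1 (-0.09) lower. A match is a stretch of letters and does not show that a factor binds there.

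**Figure D4:**
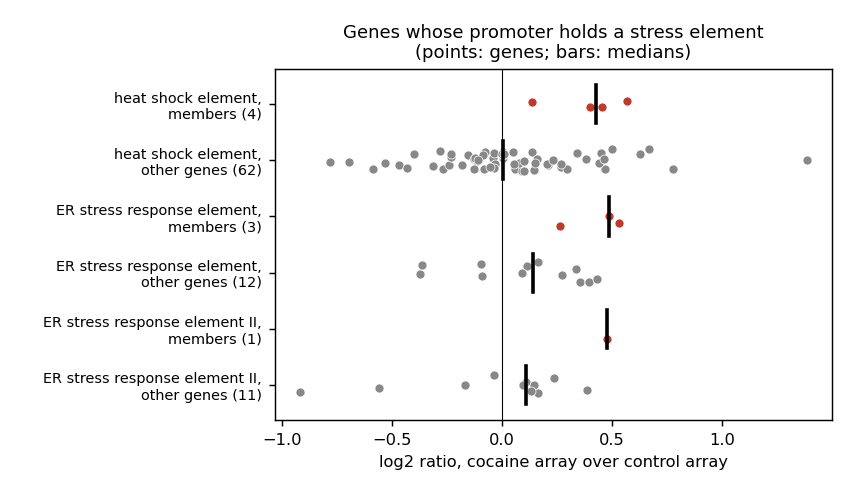
Log2 ratio of the cocaine over the control array (x axis) of named genes whose promoter holds the heat shock element, the ER stress response element or its short form (rows), with members in red, other genes in grey, points spread vertically for visibility and bars at the medians. The 8 red points, 4 of them with the heat shock element, lie above 0. The 62 other genes with that element lie around 0, and of the 34 of them above the background limit on both arrays 22 are higher.

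The regulators and partners outside the naming rule gave a mixed picture. Their counts stand beside 52.4% higher among all named genes and 57.5% among those above the background limit on both arrays. Hsf1, the main heat shock factor, stood at 675 against 836 (log2 ratio -0.31), and Hsf2 at 669 against 784 (-0.23). Hsf4, best known from the lens, stood at 122 against 218, 1.79-fold lower. Of the 4 genes of this list, Hsbp1, which binds heat shock factors, was the 1 that was higher (0.13). Of 16 measured Hsp90 cochaperones 8 were higher and 8 lower (median 0.09). The immunophilin Fkbp4 stood at 3657 against 2111, 1.73-fold higher, and Ptges3, the p23 cochaperone, at 10613 against 6938, 1.53-fold higher. Fkbp5, a relative of Fkbp4 that glucocorticoids induce, stood at 762 against 1226, 1.61-fold lower.
The cytosolic chaperonin TRiC with prefoldin had 10 of 12 measured genes higher and a median of 0.24, with Tcp1 at 3287 against 2085, 1.58-fold higher. Among named genes above the limit on both arrays 57.5% were higher, with a median of 0.05, and in the brightest class 62.4%, with a median of 0.08. Of 13 measured ER folding enzymes and lectins, 10 were higher and 3 lower. Their median was 0.16, from Pdia6 at 0.52 to Sdf2l1 at -0.25, and none was 1.5-fold different. The 9 measured genes of the unfolded protein response had 5 higher and 4 lower. Their median of 0.04 had no stable sign, at -0.04 after quantile normalization and -0.03 after loess. With low values raised to the 25th percentile of their array it was -0.02, where the median of all named genes was -0.08. The sensor kinase of this response, Eif2ak3, or Perk, had 0.51, whereas Atf4, Ddit3 and Xbp1 had -0.02, 0.04 and -0.09. Trib3 stood at 79.0 against 126.7, 1.60-fold lower. The list medians of the ER enzymes and of the unfolded protein response were thus both under the 0.48 of the ER members. Of 8 measured mitochondrial proteases and chaperones 6 were higher, with a median of 0.14 and Trap1, the mitochondrial Hsp90, at 0.46. Of 8 measured further Hsp70 partners 6 were higher, with a median of 0.11, among them the translocon protein Sec63 at 0.37 and the ER exchange factor Hyou1 at 0.23.

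**Figure D5:**
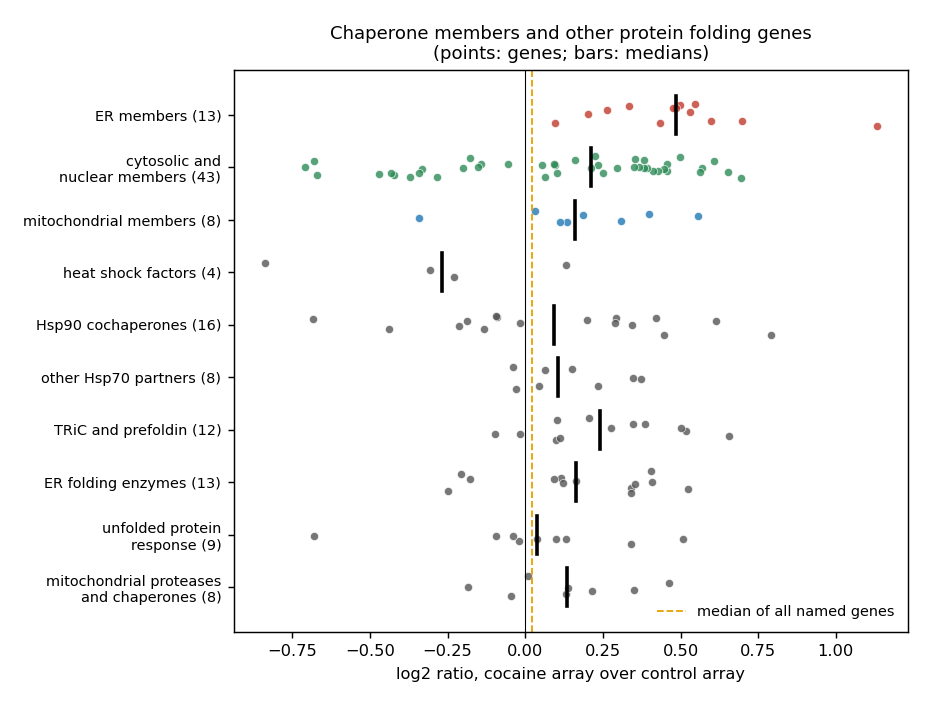
Log2 ratio of the cocaine over the control array (x axis) of the members by compartment and of the genes of 7 other protein folding lists (rows, with the number of genes), with bars at the medians and a dashed line at the median of all named genes, 0.02. The ER members have the highest median, 0.48, and the list of heat shock factors, which also holds Hsbp1, the lowest, -0.27.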

How the data were processed

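Clariom S arrays were run on 1 cocaine and 1 control sample labelled as left ventricle. The authors deposited linear, normalized intensity values for each array. MAS5 is named in the submitters' notes and the Transcriptome Analysis Console in the methods, whereas version and genome build were not given in the sources used. The platform annotation gave 1 symbol to 15049 of 24834 probe sets and several to none, 8139 transcript probe sets were unnamed and 1646 were controls. For 70 of the 71 members the probe set ID carried the chromosome of the RefSeq gene, Hspa8 being the exception. Values were converted to log2 with no pseudocount, probe sets of 1 gene were averaged, and control was subtracted from cocaine. The number of arrays limits the precision, and with 1 per group no test was run. Members, families, compartments and lists were chosen with earlier results of these data known.

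Named with values were members at least 1.5-fold different above the background limit on an array, the best known chaperones whatever their values, and the extremes of each family and compartment, with the rest added to account for every member. The alternatives were median centring, quantile normalization, a loess of the ratio on the mean level (span 0.3), floors at the background limit and at the 25th percentile of an array, leaving out genes under the limit, the highest probe set, and a 2-fold threshold. Protein sequences were not used here. The steps were tested on simulated data. Python 3.11.15 with numpy 2.4.6, pandas 2.3.3, statsmodels 0.14.6 and matplotlib 3.10.9 was used.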

Additional observations from a re-analysis of the deposited data

How the results depend on the processing

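Over the planned settings the median log2 ratio of the members stayed between 0.16 and 0.24 and that of the ER members between 0.43 and 0.48, and a value moved when it differed by 0.1 or more, or a count by more than 1.5 times. With a floor at the background limit, 0 members were at least 1.5-fold lower, and the medians were 0.032 for the Bag genes, 0.17 for Dnajb, 0.10 for the cytosol and nucleus, 0.013 for genes with no compartment and 0 for the small heat shock proteins outside the naming rule. The 25th percentile differed between the arrays, so a gene under it on both had -0.099 with that floor whatever its values. The median of all named genes was then -0.084. With low values raised to the 25th percentile of their array, 1 member was at least 1.5-fold lower, and the medians were 0.17 for Dnajb, 0.10 for the cytosol and nucleus, -0.10 for the small heat shock proteins outside the rule and -0.019 for the unfolded protein response. This last median was -0.043 after quantile normalization and -0.029 after loess, and that of the small Hsp family -0.025 and -0.026. Without genes under the limit on both arrays, 1 member was at least 1.5-fold lower, the small Hsp median was 0.31 and that of those outside the rule -0.12. At 2-fold, 1 member was higher and 0 lower. The other list and count results, 173 in number, stayed, and of the values of single named members 271 differed by less than 0.1 and 11 by 0.1 or more. The sign turned for Dnajb12 (-0.014 after quantile normalization), Hspb1 (-0.025 after quantile normalization and -0.026 after loess) and Dnajc28 (-0.0049 after centring and -0.00087 after loess). Hspa2 had -0.099 with low values raised to the 25th percentile, the value set by the floors alone, so its sign there says nothing about the gene. The number of ER members that were higher was 12 after quantile normalization and 13 under the other settings. No paired analysis was possible because the groups hold 1 array each.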
